A study of Mus musculus with 12 samples.

Results

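The regions described here are stretches of the mouse genome annotated as distal intergenic that carried acetylated lysine 8 of histone H4 (H4K8ac) in all adult oligodendrocyte progenitor libraries and in no neonatal library. They were chosen on peak presence and annotation. The 6 H4K8ac peak lists were merged wherever peaks overlapped by at least 1 bp, and a merged region was kept if it had a peak in 3 of 3 adult lists, none in the 3 neonatal lists, and only peaks that the authors annotated as distal intergenic. This left 4516 regions of 98027 merged regions, or 22.9% of the 19720 merged regions whose peaks were all distal intergenic. The adult-only pattern itself is therefore the selection and not a result, and all values from the same contrast of ages are given as descriptions without a test.

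In the series, H4K8ac was profiled by ChIP-seq (chromatin immunoprecipitation followed by sequencing) of primary oligodendrocyte progenitor cells sorted from mouse forebrain. The neonatal group was 3 libraries from cells sorted at postnatal day 5 and the adult group 3 libraries from cells sorted at postnatal day 60. Both groups carried the genotype PdgfrαH2BEGFP, in which a histone H2B fused to green fluorescent protein is expressed from Pdgfra, so cells were selected by this reporter, and a stable nuclear reporter can persist in cells that have begun to leave the progenitor state. Titles call the 3 libraries of an age biological replicates, while strain background, sex and any pooling of animals are not given in the sources used here. The 6 input libraries were not analysed here.

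Acetylation of histone tails is placed by acetyltransferases, removed by deacetylases and read by bromodomain proteins, and it is found at active promoters and at enhancers, the distal elements that act on promoters over long distances. Oligodendrocyte progenitors divide and give rise to the myelin-forming oligodendrocytes of the central nervous system. Progenitors of the adult brain divide more slowly than those of the newborn and remain throughout the tissue.

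Facts of the whole series that touch all values below are these. The neonatal lists held 9097, 31189 and 7353 peaks and the adult lists 72278, 72661 and 77002. Read depth per library is not in the files, and its part in these counts was not tested. Of 16 progenitor marker genes, 15, 16 and 11 had a promoter peak in the neonatal libraries and 15, 13 and 14 in the adult libraries. Of 16 myelin and oligodendrocyte genes, 3, 7 and 3 had a promoter peak in the neonatal libraries and 16, 16 and 16 in the adult libraries. Of 16 markers of microglia, 0 had a promoter peak in the neonatal libraries and 1 in each adult library, and of 16 vascular markers 0, 5 and 1 against 3, 3 and 4. Of 16 astrocyte markers, 6, 13 and 4 had one in the neonatal and 10, 8 and 11 in the adult libraries, and of 16 neuronal markers 0, 8 and 1 against 7, 5 and 5. Over all genes named in any peak list, the shares with a promoter peak were 27.2%, 58.4% and 24.0% against 66.2%, 64.5% and 66.1%.

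The sequences that help to read the results are those of microRNAs and promoters close to the regions, all from RefSeq with build GRCm38.p6. MicroRNAs of the let-7 family promote the exit of many cell types from a progenitor state. They were chosen after it was seen that 7 of their 12 hairpins lay within 20 kb of an adult-only distal region. Some of these 7 share a locus, and the share over all 1005 hairpins was 5.37%. The other, miR-219, was chosen because it is a microRNA of oligodendrocyte differentiation. The mature 5p strands below run 5′ to 3′ with the seed, bases 2 to 8, in capitals. The let-7 strands share 1 seed and differ in the bases after it, and miR-219a-5p has another seed.
let-7a-5p: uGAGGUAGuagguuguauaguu
let-7b-5p: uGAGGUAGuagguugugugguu
let-7c-5p: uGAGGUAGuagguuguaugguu
let-7d-5p: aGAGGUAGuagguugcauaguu
let-7f-5p: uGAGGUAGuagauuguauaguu
let-7g-5p: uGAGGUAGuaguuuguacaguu
let-7i-5p: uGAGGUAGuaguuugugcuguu
miR-219a-5p: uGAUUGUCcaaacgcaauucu

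The promoters of Opalin and Mal, which encode membrane proteins of oligodendrocytes and myelin, are shown because both genes had an adult-only distal region as well as H4K8ac over the promoter itself. The 250 bases upstream of the Opalin start site (chr19:41077114-41077363, minus strand) were covered by peaks over 250 bp in each of the 3 adult libraries and over 0 bp in each neonatal library. The same window of Mal (chr2:127656696-127656945, minus strand) was covered over 233, 250 and 250 bp in the adult libraries and 0 bp in the neonatal ones. This pattern was not limited to myelin genes. Windows of S100b and Nr4a1, also nearest genes of such regions, were covered over 0 bp in each neonatal and 250 bp in each adult library. This holds for these windows only. Elsewhere in the promoter class, a peak was assigned to Nr4a1 in all 3 neonatal libraries and to S100b in neonatal 2. A window of Nfix was covered over 188, 111 and 0 bp in the neonatal libraries and 250 bp in each adult library. Capitals mark matches on either strand to CAGCTG, an E-box core, to ACAAAG or the related ACAATG, cores of SOX factor sites, and to CTGGCAC or its variant CTGGTAC, cores of sites of the myelin factor MYRF.
Opalin: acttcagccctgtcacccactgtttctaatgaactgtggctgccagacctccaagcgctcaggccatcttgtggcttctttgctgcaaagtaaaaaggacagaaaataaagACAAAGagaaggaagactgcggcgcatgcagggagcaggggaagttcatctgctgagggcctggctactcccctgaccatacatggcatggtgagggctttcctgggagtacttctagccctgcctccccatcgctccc
Mal: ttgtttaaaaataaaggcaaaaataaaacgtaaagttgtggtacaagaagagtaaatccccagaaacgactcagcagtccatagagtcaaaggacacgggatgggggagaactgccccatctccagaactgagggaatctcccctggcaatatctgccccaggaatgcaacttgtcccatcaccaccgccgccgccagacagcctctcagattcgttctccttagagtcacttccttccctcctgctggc

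The Opalin window held 1 match, ACAAAG, a core sequence of SOX factors, at 139 bases upstream of the start. The Mal window held 0 matches. Of 32851 RefSeq promoter windows of this length, 16.5% held ACAAAG on either strand, 10.7% held the sequence ACAATG, 13.0% held the E-box core CAGCTG, 4.19% held the MYRF core CTGGCAC and 1.83% held its variant CTGGTAC, so a match describes letters and not a bound site.

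The adult-only distal regions were mostly of middling strength within the adult lists. They held 6527, 6370 and 5045 peaks in adult replicates 1, 2 and 3, which was 9.03%, 8.77% and 6.55% of each list. The authors' fold enrichment over background, a peak's own value, had a median over regions of 4.99 in adult 1 (quartiles 3.995 to 6.15), 4.82 in adult 2 (3.97 to 6.24) and 4.90 in adult 3 (3.98 to 6.41), taking the strongest peak of each region. Ranked within its own list, the median region stood at percentile 53.3, 56.0 and 64.4. Above percentile 90 of their list lay 1.88%, 4.98% and 5.91% of the regions. The regions were thus close to the middle of the list in adult 1 and somewhat above it in adult 3, and few were among the strongest peaks. Folds of the same region in pairs of adult libraries had Spearman correlations of 0.587, 0.587 and 0.618 across 4516 regions, which share libraries and are not replicates.

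The number of regions depended on list length. When each library was reduced to its 7353 strongest peaks, the size of the shortest list, 93 regions met the same rule, and these overlapped 39 of the 4516. Among those strongest peaks lay a peak of 77, 166 and 176 of the 4516 regions in adult 1, 2 and 3, or 1.71%, 3.68% and 3.90%. Most adult-only distal regions therefore rested on peaks that lay below the strongest 7353 of an adult list.

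Regions just inside and just outside the rule differed as follows. Another 3129 distal intergenic regions had a peak in 2 adult lists and no neonatal list, with median folds of 3.98, 3.87 and 3.76 where present, below those of the regions kept. On the other side, 1100 distal regions had 3 adult lists and 1 neonatal list, and in 1083 of them that list was neonatal 2, the longest of its age. Their median adult folds were 6.15, 5.68 and 5.97. The 141 distal regions found in all 6 libraries had the highest adult folds of these classes, 10.1, 8.64 and 9.503. A further 256 adult-only regions were left out because some of their peaks had another annotation, with a promoter peak in 160 of them.

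The regions lay at a median of 18.6 kb from the nearest transcription start site (TSS) in the authors' annotation, with quartiles of 8.83 and 38.7 kb. The shortest distance was 3.003 kb, since the authors' promoter class ends at 3000 bp, and the longest 335.3 kb. Of all members, 29.3% lay under 10 kb, 53.1% between 10 and 50 kb, 12.3% between 50 and 100 kb and 5.29%, or 239 regions, beyond 100 kb. They lay upstream of their nearest start more often than downstream, 2485 against 2031 regions (55.0% upstream), with medians of 15.8 and 21.9 kb.

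Distal regions found in 3 adult and at least 1 neonatal list (1513 regions, called shared distal regions below) lay at a median of 14.8 kb, with 1.72% beyond 100 kb and a nearly equal share upstream, 55.1%. Adult-only regions in introns (7737) lay at a median of 14.2 kb, with 2.96% beyond 100 kb. The adult-only distal regions thus had the largest median and the largest share beyond 100 kb of these 3 classes, while the longest distance, 360.0 kb, was that of an intronic region. They were narrower than the shared distal regions, with a median merged width of 901 bp (quartiles 579 to 1495) against 1217 bp. Distance went with neither fold nor the authors' log2 fold change: the Spearman correlation across 4516 regions was -0.02 with the mean percentile of fold, and across 4282 regions 0.06 with log2 in the authors' deposited table.

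**Figure D1:**
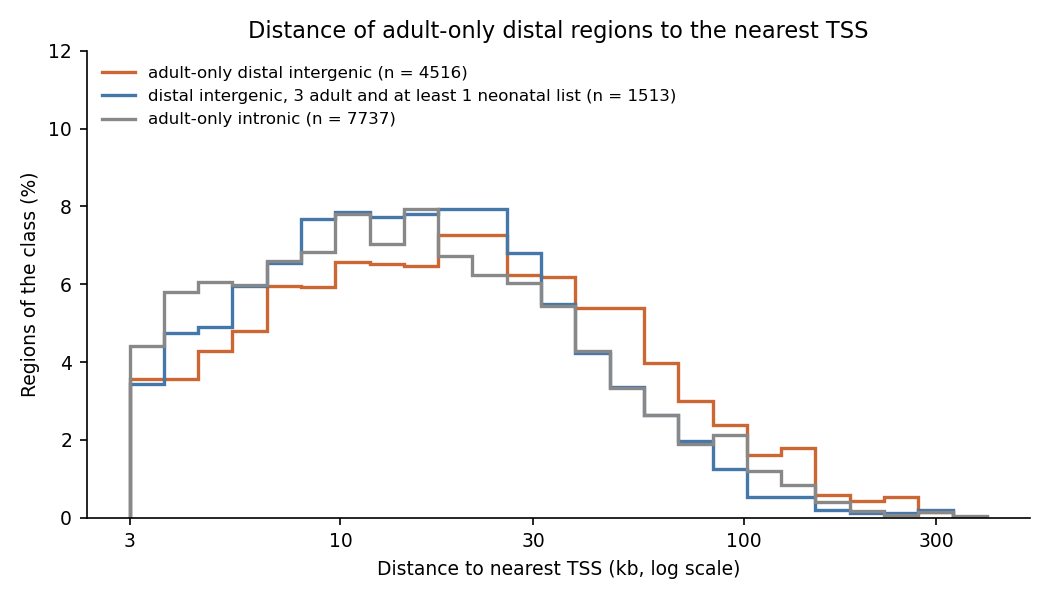
Distance to the nearest TSS (x axis, kb, log scale) as the percentage of regions of each class (y axis) in bins of equal width on the log scale, for the adult-only distal regions, the shared distal regions and the adult-only intronic regions. A larger share of the adult-only distal regions lies beyond 100 kb, 5.29% against 1.72% and 2.96%.

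The extremes of distance were named genes of different kinds. The farthest region lay 335.3 kb upstream of Sema6d, which encodes a transmembrane semaphorin, a class of axon guidance molecules (chr2:123754415-123754705). Its folds were 3.33, 4.82 and 3.87. The next were 305.1 kb from Gm25722 and 295.7 kb from n-R5-8s1. The closest were at 3.003 kb from Gm50326, 3.003 kb from Plekhh2 and 3.009 kb from D630024D03Rik, so these 3 sat at the edge of the promoter class. The region at Plekhh2 had folds of 6.51, 7.09 and 7.74.

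All 20 chromosomes with peaks held adult-only distal regions, from 395 on chromosome 1 and 383 on chromosome 2 to 62 on the X. Per 100 distal intergenic regions of a chromosome, the adult-only ones numbered between 19.6 on chromosome 4 and 25.2 on chromosome 16.

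The regions named 2300 nearest genes. Of these, 1344 had 1 region, 791 had 2 to 4, and 165 had 5 or more and held 1178 regions, 26.1% of the total. The nearest gene was protein-coding in RefSeq for 1707 regions (37.8%, 994 genes), a long noncoding RNA for 775 (17.2%) and a pseudogene for 605 (13.4%). For 1228 regions (27.2%) the authors' symbol was not matched in RefSeq. Many nearest genes were therefore gene models without a known product, and the protein-coding genes on either side of each region were taken from RefSeq as well, a step added after these values were seen. The median distance to the nearest coding gene body was 32.7 kb (quartiles 10.4 and 104), and 1169 regions (25.9%) lay more than 100 kb from any. In all, 82 regions overlapped a RefSeq coding gene despite the distal intergenic annotation.

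The adult-only distal regions lay in groups. A run was defined as 3 or more of them on a chromosome with gaps of at most 50 kb. The 526 runs held 60.3% of the regions, whereas 1019 regions stood alone and 387 groups were pairs. Of the runs, 370 had 3 to 5 members, 116 had 6 to 9 and 40 had 10 or more. Those 40 runs lay on 18 chromosomes and held 572 regions. The median gap between neighbours was 23.7 kb. For shared distal regions it was 320.2 kb, with 23.7% in runs, and for adult-only intronic regions 11.7 kb, with 70.2% in runs. These classes differ in number (4516, 1513 and 7737), and a larger class has shorter gaps, so the 3 shares are set side by side without a test.

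Many neighbours in a run were pieces of 1 stretch separated by short gaps. When peaks within 1000 bp were merged, the rule gave 2909 regions and 34.7% of them lay in runs. With the tighter of the other gap limits tried the share in runs was 41.6%, and among the 93 regions that met the rule on equal numbers of strongest peaks it was 7.53%.

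Runs were often empty of neonatal peaks of any annotation, including between the members. In 344 of the 526 runs (65.4%) no neonatal library had a peak anywhere in the span. Neonatal 1 had none in 467 runs, neonatal 3 none in 483 and neonatal 2 none in 346. Among the 40 runs of 10 or more, 15 had no neonatal peak. The count thus followed the length of the neonatal lists, with the longest list entering the most runs. The members themselves lack neonatal peaks by the rule, and the share of empty runs was not computed for other classes of regions.

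The largest run held 36 members over 262.1 kb between Wdr11 and Fgfr2 (chr7:129743829-130005946). Fgfr2 encodes a receptor for fibroblast growth factors, and Wdr11 a WD-repeat protein of membrane trafficking. The nearest coding gene ends lay 108.1 kb away on the Wdr11 side and 156.5 kb away on the Fgfr2 side. Peaks of any class in the span numbered 0, 1 and 0 in the neonatal libraries and 95, 109 and 118 in the adult libraries, covering 0, 0.245 and 0 kb against 49.6, 60.8 and 87.1 kb. The highest fold of any member was 11.7 in adult 1, 13.1 in adult 2 and 12.8 in adult 3, not all in the same member, and the run's medians were 4.75, 4.66 and 4.86. Of the 36 members, 35 had a listed site in the authors' deposited table, with log2 values of 1.87 to 6.02 and a median of 3.43.

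The run of 21 members between Tenm2, which encodes the adhesion protein teneurin 2, and Mat2b, which encodes a subunit of methionine adenosyltransferase, stood far from both genes (chr11:38020741-38196470). Tenm2 was 783.7 kb away and Mat2b 2483 kb. Neonatal peaks numbered 0 in each library, against 46, 60 and 51 adult peaks that covered 26.01, 30.6 and 42.5 kb. The authors' deposited table gave a median log2 value of 4.13 for its 21 members, with a maximum of 7.69. The run held the strongest of all adult-only distal regions by mean percentile, 5.78 kb wide, with folds of 17.7, 16.2 and 21.2 (chr11:38055037-38060814, nearest gene model Gm25693).

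The other runs among the 5 largest differed in how much the neonatal libraries entered them. The run of 31 between Eno1b and Dtwd2 on chromosome 18 (49400626 to 49654144) had neonatal coverage of 0, 0.152 and 0 kb against 41.7, 49.0 and 71.4 kb in the adult libraries. The run of 24 between Clnk, an immune-cell adaptor, and Hs3st1, a heparan sulfate sulfotransferase, had 0, 0.161 and 0 kb against 33.7, 41.9 and 56.4 kb (chr5:39026778-39234947). In contrast, the run of 26 around Irf2bp2, which encodes a transcriptional corepressor, held 12, 29 and 8 neonatal peaks covering 3.75, 13.9 and 2.02 kb beside its adult-only members, against 56.4, 66.5 and 91.6 kb in adults (chr8:126514989-126812574). By the authors' deposited table its members had a median log2 of 2.27, the lowest of these 5 runs. The gene that was nearest to the most members of each of the 5 runs was Gm44778, Gm25440, Gm45805 (9 of 26, beside 7 each for Irf2bp2 and Gm26759), Gm42857 and Gm25693.

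**Figure D2:**
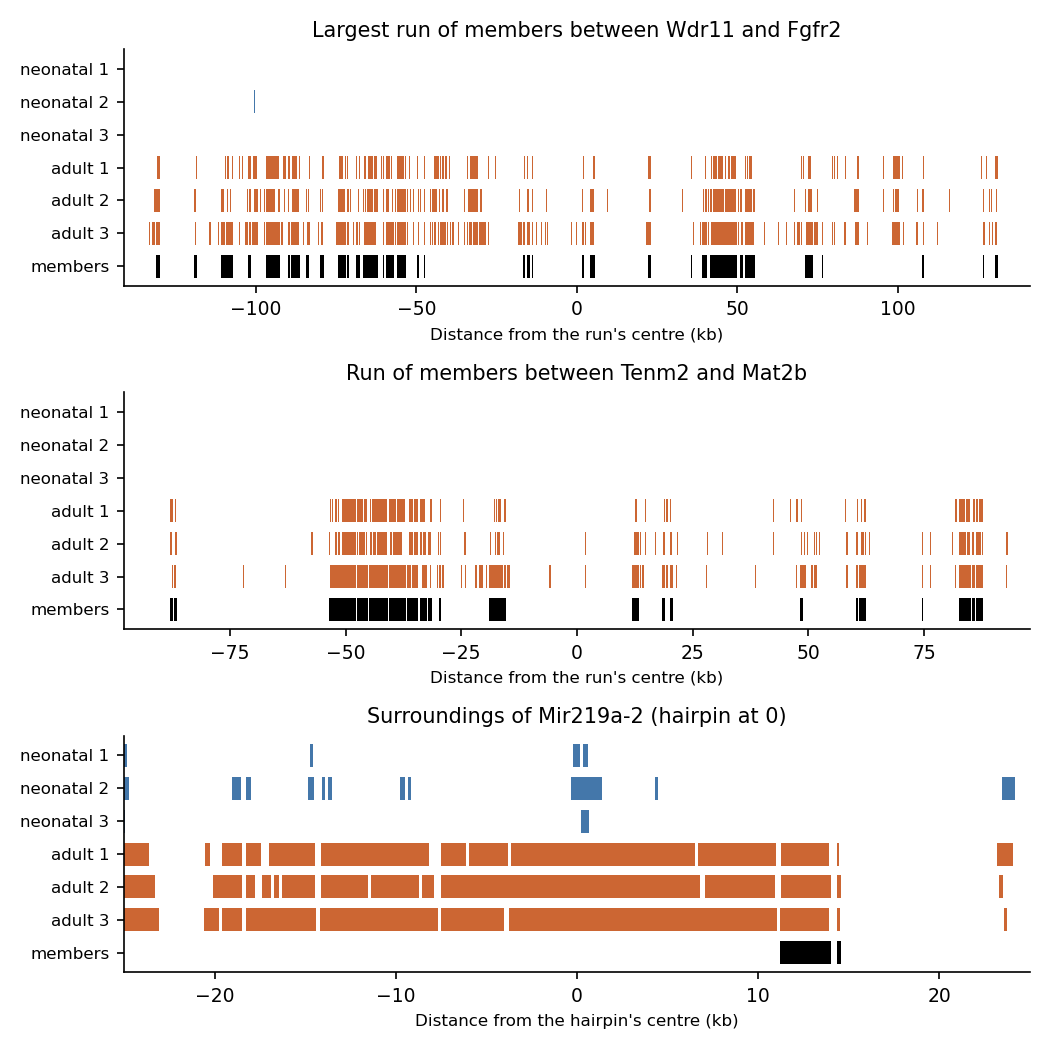
Peaks of each of the 6 libraries (rows) and the adult-only distal regions (black) against distance from the centre in kb, for the run of 36 between Wdr11 and Fgfr2, the run of 21 between Tenm2 and Mat2b, and the surroundings of the Mir219a-2 hairpin. The first span has 1 neonatal peak and the second 0, whereas neonatal peaks lie at the Mir219a-2 hairpin itself and the adult-only regions start 11.2 kb from it.

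Grouped by the interval between coding genes, the regions fell into 1687 intervals, of which 61 held 10 or more and together 975 regions (21.6%). Those 61 intervals were long, with a median of 536.8 kb against 84.9 kb for all 1687. The whole length covered by peaks in each interval, whatever their annotation, is given below for neonatal and then adult replicates 1 to 3. In the 20 intervals with the most regions the 3 adult values lay above the 3 neonatal values, as the choice of intervals by adult-only regions favours.

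The interval beside Car2, which encodes carbonic anhydrase II, a cytosolic enzyme abundant in oligodendrocytes, held 34 regions in 394.3 kb (chr3:14900771-15295062). It had 0 neonatal peaks in any library, and its adult coverage was 45.0, 46.7 and 69.0 kb. Of these regions, 32 had Gm33819, a long noncoding RNA, as nearest gene, the highest count of any gene. Their folds ran from 2.70 to 11.6 in adult 1, 2.73 to 10.98 in adult 2 and 2.87 to 14.8 in adult 3. A promoter peak was assigned to Gm33819 in adult 1 and 3 and in no neonatal library, and to Car2 in neonatal 2 and 3 and all adult libraries.

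The interval between Tmem229a and Gpr37, a G protein-coupled receptor expressed in oligodendrocytes, held 22 regions in 712.4 kb (chr6:24956126-25668522). Of these, a run of 9 lay 16.1 kb from Tmem229a and 582.8 kb from Gpr37. Coverage of the interval was 0, 0.370 and 0.288 kb in neonatal and 15.1, 17.8 and 31.3 kb in adult libraries. The Gpr37 promoter had a peak in neonatal 2 and in all adult libraries. Its members had a median log2 of 4.002 by the authors' deposited table.

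Voltage-gated potassium channel genes flanked a short and dense group. Between Kcna1 and Kcna6 lay 11 regions in 62.5 kb, or 17.6 per 100 kb, with 0 neonatal peaks and adult coverage of 26.2, 31.4 and 42.5 kb (chr6:126645802-126708327). The run that includes them held 19 regions and began 28.6 kb from Kcna5.

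Regulators of transcription, chromatin and RNA also flanked large groups. Prox1, a homeodomain transcription factor, had 24 regions between it and Rps6kc1, with coverage of 0, 2.79 and 0.458 kb against 39.2, 43.0 and 55.2 kb (chr1:190170828-190772878). Of these, 11 had Prox1 as nearest gene, all upstream of it at 60.2 to 114.8 kb. Chd7, a chromatin remodeller, had 17 between it and Clvs1, where neonatal coverage was higher, 1.97, 8.47 and 0.929 kb against 52.7, 58.3 and 73.5 kb. Qk, which encodes the RNA-binding protein quaking that acts on myelin mRNAs, had 17 between it and Pabpc6, with coverage of 1.93, 14.6 and 1.06 kb against 42.8, 52.1 and 72.1 kb. At Qk, 26 of the 113 merged regions of the interval had a neonatal peak, against 0 of 103 beside Car2, so adult-only regions occurred both in intervals empty of neonatal peaks and among regions of both ages.

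Receptor, adhesion and signalling genes flanked others. The interval between Slc4a3 and Epha4, an ephrin receptor, held 30 regions and had coverage of 0, 1.26 and 0 kb against 30.4, 35.5 and 54.1 kb. Of these regions, a run of 11 lay 93.3 kb from Slc4a3 and 1670 kb from Epha4. Ncam1, the neural cell adhesion molecule, had 21 between it and Plet1, with 0, 3.55 and 0 kb against 26.4, 32.1 and 50.2 kb. Pik3r1, a regulatory subunit of phosphoinositide 3-kinase, had 18 between it and Cd180, with 0.247, 3.37 and 0.413 kb against 46.6, 54.9 and 75.7 kb. Of these, a run of 9 lay 852.8 kb from Pik3r1 and 46.4 kb from Cd180. Neonatal 2 had the highest neonatal coverage at each of these 3 places and adult 3 the highest adult coverage.

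Metabolic genes were among them too. Mvk, mevalonate kinase of cholesterol synthesis, was the nearest gene of 12 regions at 17.2 to 48.4 kb, and the interval from Mvk to Fam222a held 15 in 107.7 kb (chr5:114460592-114568250). Coverage there was 0.217, 0.490 and 0.210 kb in the neonatal and 23.8, 28.5 and 35.3 kb in the adult libraries. Glul, glutamine synthetase, had 13 between it and Zfp648, with 0.159, 4.42 and 0 kb against 37.9, 43.9 and 60.8 kb. Plpp3, a phosphatase of lipid phosphates, had 22 between it and Usp24, with 0.803, 3.11 and 0.411 kb against 25.8, 31.3 and 43.4 kb. Of these, a run of 11 lay 679 kb from Plpp3 and 374.1 kb from Usp24.

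Il33, an alarmin cytokine, had 12 regions between it and Ranbp6 in 112.1 kb, with coverage of 0, 0.397 and 0 kb in neonatal and 17.6, 19.0 and 26.6 kb in adult libraries. Its regions lay among the higher log2 values of the authors' deposited table, with a median of 4.19.

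**Figure D3:**
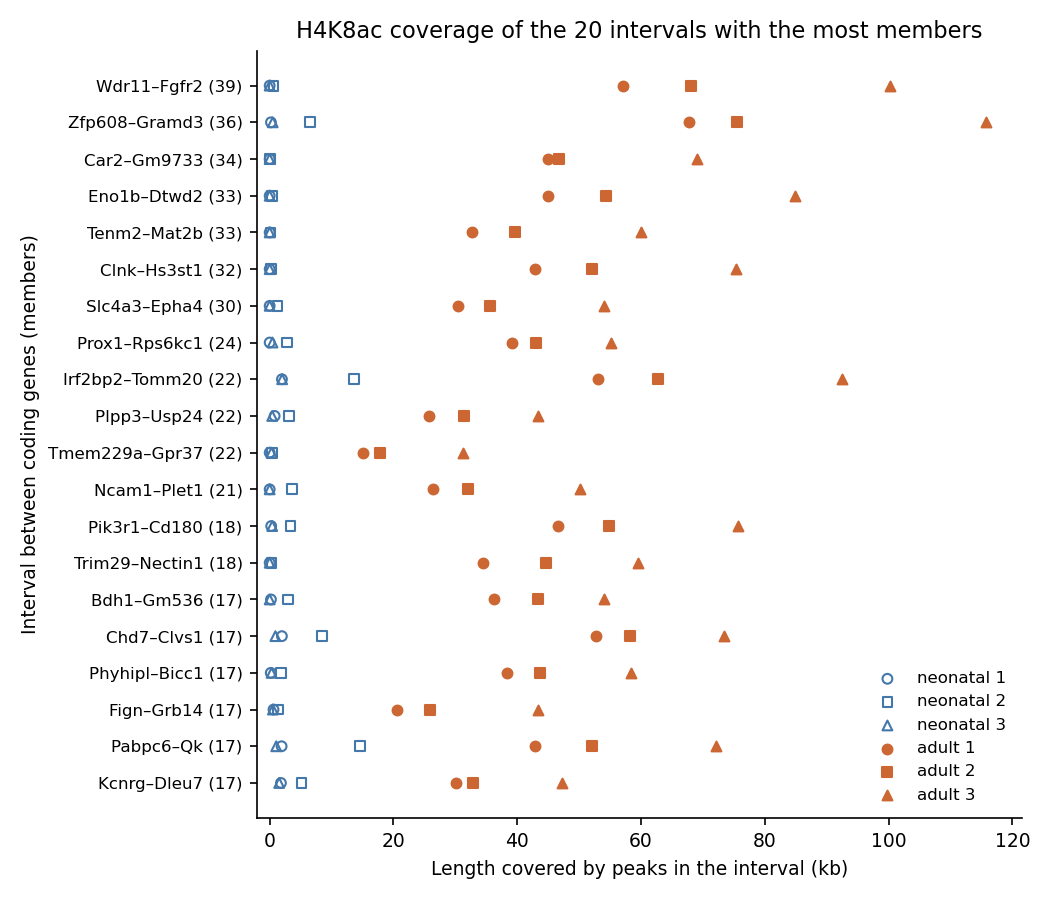
Length covered by H4K8ac peaks (x axis, kb) in each of the 6 libraries for the 20 intervals between RefSeq coding genes with the most adult-only distal regions (y axis, number of regions in brackets). Open symbols are neonatal and filled symbols adult libraries, and neonatal 2 has the highest neonatal coverage at Irf2bp2–Tomm20, Pabpc6–Qk and Chd7–Clvs1.

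The remaining nearest genes with the most regions were gene models. Gm44778 had 25, Gm42857 had 24, Gm25440 had 17, Gm25693 had 16, Gm33979 had 15, and Gm5257 and Gm12129 had 13 each. Those at Gm33979, a long noncoding RNA between Phyhipl and Bicc1, had median folds of 4.69, 5.39 and 5.08, and a promoter peak was assigned to Gm33979 in 3 of 3 adult libraries and 0 of 3 neonatal ones. No library had a promoter peak assigned to Gm5257.

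The strongest regions by mean percentile of fold in the adult lists were, after that of Gm25693, 1 of 8.35 kb between Cdk19 and Slc22a16 with folds of 18.5, 16.5 and 15.7 (chr10:40508167-40516518, nearest gene Gm18671) and 1 of 2.81 kb upstream of Cercam with folds of 17.0, 15.9 and 13.6 (chr2:29856898-29859708). Next came a region upstream of Kctd3 with folds of 13.7, 15.0 and 19.6 (chr1:189015681-189024131) and a second region near Gm18671 with folds of 17.0, 14.2 and 13.7. The lowest percentile among these 5 regions in any adult list was 93.6, at Kctd3 in adult 1.

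Wide regions were looked up after their values were seen. The widest was 14.0 kb, between Gm41408 and Slc38a1, a glutamine transporter gene, with folds of 13.0, 13.3 and 16.6. Another of 13.2 kb lay 9.12 kb upstream of Mapt, which encodes the microtubule-associated protein tau, with folds of 11.2, 14.2 and 14.6 (chr11:104209051-104222274). A region of 12.9 kb lay between Mrps5 and Mal with folds of 14.1, 13.9 and 10.7, and 1 of 12.1 kb lay 18.3 kb from Fth1, the ferritin heavy chain gene, with folds of 14.1, 11.3 and 14.4.

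Genes of defined roles were followed in 12 lists of 16 genes. The share of all genes named in any list that were nearest gene to an adult-only distal region was 9.82%, and the share of RefSeq coding genes that flanked 1 was 14.1%. The first share includes noncoding gene models. Of the 14238 RefSeq protein-coding genes named in any list, 994 were nearest gene. Of the 16 myelin genes, 6 were nearest gene, with 19 regions, and 8 were flanking. Of 16 transcription factors of oligodendrocyte differentiation, 5 were nearest and 9 flanking. Of the 16 progenitor genes, 0 were nearest and 5 flanking, with 5 regions at Olig2, 3 at Sox5, 2 each at Olig1 and Cspg4 and 1 at Pdgfra. These counts describe lists of 16 genes, and the part of the length of intergenic space around each gene was not tested.

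Among myelin genes, Ugt8a, which encodes the enzyme that makes galactosylceramide, a main lipid of myelin, had 7 regions on both sides of the gene between chr3:125852734 and chr3:125971888. Folds of the 7 ranged from 4.34 to 7.99 in adult 1, 3.403 to 9.08 in adult 2 and 4.05 to 9.503 in adult 3. By the authors' deposited table their log2 values ran from 2.32 to 5.47. Its promoter had a peak in neonatal 2 and 3 and in all adult libraries.

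Cldn11, the tight junction protein of myelin, had 6 regions downstream of the gene (chr3:31166687-31200554), of which 5 formed a nearly continuous block. The member closest to the gene had folds of 7.35, 11.9 and 9.21, and the 1 farthest from it, next to Slc7a14, had folds of 3.98, 2.87 and 3.42. In the authors' deposited table the 6 log2 fold changes ran from 2.30 to 4.83. The Cldn11 promoter had a peak in neonatal 2 and in all adult libraries.

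The Opalin promoter had a peak in 3 of 3 adult and 0 of 3 neonatal libraries. The Opalin region lay 3.23 kb upstream of the start, just beyond the 3000 bp limit of the authors' promoter class, with folds of 12.1, 9.08 and 8.69 (chr19:41080341-41081750).

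The region assigned to Mal, 5.24 kb wide, lay just beyond the gene's end, with folds of 17.4, 9.40 and 14.6 (chr2:127627643-127632882). Trf, which encodes the iron carrier transferrin, had 2 regions upstream with folds of 3.62, 4.25 and 4.26 and of 5.78, 4.10 and 5.71. Over the whole list, promoter peaks were present at 3, 7 and 3 of 16 myelin genes in the neonatal libraries and at 16, 16 and 16 in the adult libraries. Over all protein-coding genes named in any list the shares with a promoter peak were 40.04%, 80.9% and 35.7% against 85.5%, 82.7% and 83.9%, so promoter peaks of coding genes in general were also more frequent in the adult libraries. The part of differentiated cells in the adult-only distal regions was not tested.

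Among the differentiation factors, Nfix, a nuclear factor I protein, had 3 regions 8.50 to 10.8 kb upstream, the strongest with folds of 6.51, 9.08 and 9.72. Thrb, a thyroid hormone receptor gene, had 2, at 26.8 and 137.6 kb upstream, and the nearer had folds of 6.87, 5.40 and 5.50. Zeb2, a zinc finger repressor that promotes myelination, had 1 beyond its 3′ end with folds of 7.23, 4.10 and 5.97. Tcf7l2, an effector of Wnt signalling, had 1 at 98.1 kb with folds of 4.62, 2.87 and 2.59, a low value without a listed site in the authors' deposited table. Promoters of this list had peaks at both ages, 12, 14 and 9 of 16 against 14, 14 and 14. The shares over all protein-coding genes named in any list were 40.04%, 80.9% and 35.7% against 85.5%, 82.7% and 83.9%.

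Immediate early genes gave 3 nearest genes of 16. Arc, an activity-regulated gene, had a region of 5.43 kb at 6.82 kb downstream of the start with folds of 13.5, 15.3 and 12.52 (chr15:74660318-74665748), and the authors' deposited table gave it a log2 of 6.90. A smaller neighbour at 12.6 kb had folds of 3.25, 4.82 and 4.86. Fosb, a subunit of the AP-1 transcription factor, had 1 region 5.83 kb upstream with folds of 8.68, 6.35 and 6.85, and Nr4a1, an orphan nuclear receptor gene, 1 at 12.4 kb upstream with folds of 5.87, 7.94 and 5.53.

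Of the 16 astrocyte genes, 3 were nearest. Slc1a3, the glutamate transporter GLAST, had 4 regions upstream from 8.55 to 64.7 kb, with the strongest fold values of 9.02, 6.81 and 7.89 in adult 1, 2 and 3 found in different members. Fgfr3 had 1 with folds of 4.70, 3.69 and 3.32, and S100b 1 with folds of 3.90, 3.18 and 3.499. Cell cycle genes gave 2 of 16, Ccnd1, the gene of cyclin D1, with 2 regions at 53.2 and 85.8 kb upstream and Aurkb with 1. Lipid metabolism gave 1 of 16, Scd1, a fatty acid desaturase, with folds of 3.62, 5.11 and 4.64.

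Housekeeping genes gave 3 of 16 nearest and 6 of 16 flanking. Ppia had 2 regions, of which the nearer had folds of 6.87, 6.24 and 10.4 and a log2 of 6.91 by the authors' deposited table. Actb and Eef1a1 had 1 each. Neuronal, microglial, vascular and Notch, Hes and Id genes gave 0 of 16 nearest in each list and 2, 2, 3 and 9 of 16 flanking. In these lists only 9, 3, 10 and 16 genes were named in any peak list. The share of 9.82% given above is over named genes, so few nearest genes could be found in the shorter sets.

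MicroRNA genes near the regions were looked up after values were seen. Of 1005 RefSeq hairpins, 54 (5.37%) lay within 20 kb of an adult-only distal region, against 2.09% for shared distal and 8.26% for adult-only intronic regions, classes of different size. The 7 let-7 hairpins among them lay at 4 loci, while Mirlet7c-1, Mirlet7e, Mirlet7a-2, Mirlet7f-2 and Mir98 did not have a region within 20 kb. The shared distal regions had 3 of the 12 let-7 hairpins within 20 kb, and the adult-only intronic regions 2.

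On chromosome 15, Mirlet7b (85707319 to 85707403) and Mirlet7c-2 (85706603 to 85706697) lay 3.13 and 3.84 kb from a region with folds of 3.62, 4.54 and 3.54. Coverage by all peaks within 20 kb of Mirlet7b was 0, 1.03 and 0 kb in the neonatal and 6.71, 6.06 and 10.2 kb in the adult libraries. On chromosome 13, Mirlet7d, Mirlet7f-1 and Mirlet7a-1 lay 6.58, 8.39 and 8.74 kb from a region with folds of 4.70, 3.18 and 6.19. Coverage within 20 kb of Mirlet7d was 1.05, 1.68 and 1.16 kb against 4.43, 3.60 and 5.39 kb. In both windows adult coverage exceeded neonatal coverage in each library, and at Mirlet7d the neonatal libraries had peaks as well.

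Mirlet7g on chromosome 9 lay 11.2 kb from the nearer of 2 regions upstream of Wdr82, whose folds were 5.99, 5.96 and 5.97 and 5.06, 6.24 and 5.30. The log2 values given to them by the authors' deposited table, 6.67 and 6.504, were the highest of the let-7 neighbours. Mirlet7i on chromosome 10 lay 5.40 kb from a weak region with folds of 3.33, 3.18 and 3.404. Coverage within 20 kb of it was 0.938, 1.30 and 0.899 kb in neonatal and 1.86, 1.75 and 2.63 kb in adult libraries. Peaks in that window numbered 2, 1 and 2 in neonatal and 2, 2 and 2 in adult libraries. The adult lists are longer and coverage over all hairpin windows was not computed, so whether let-7 windows differ from others was not tested.

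Mir219a-2 and Mir219b, which overlap on opposite strands of chromosome 2 (Mir219a-2 at 29845631 to 29845727), lay 11.2 kb from the region upstream of Cercam named above as the third strongest. Coverage within 20 kb of Mir219a-2 was 0.803, 3.71 and 0.408 kb in the neonatal and 31.3, 31.7 and 32.9 kb in the adult libraries. Most of that window was therefore covered in each adult library, while neonatal peaks were short. The other miR-219 hairpins, Mir219a-1 and Mir219c, each lay 43.9 kb from the nearest adult-only distal region.

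The authors' deposited table of differential sites between the ages gave a listed site, all at an adjusted p-value of at most 0.05, to 4282 of the 4516 regions (94.8%, exact 95% binomial interval 94.1% to 95.5%, counting error only). All 4282 had a positive value, read as higher in adult cells because all 36 listed sites in regions found only in neonatal lists were negative. Of all merged regions, 44.9% held a positive site of the authors' deposited table. The table contrasts the same libraries as the rule, so the members' count was fixed to be high and is a description.

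By the authors' deposited table the members had a median log2 of 3.06 (quartiles 2.32 and 4.02, range 0.99 to 8.01). Shared distal regions held a positive site in 943 of 1513 cases, with a median of 1.67 over their 944 listed sites, and adult-only intronic regions had a median of 3.06. Adult-only distal and adult-only intronic regions thus had the same median in the authors' deposited table to 2 decimals. The 234 regions without a listed site were narrower, 542.5 against 927 bp in median, and weaker, with median folds of 4.19, 4.15 and 3.98 against 5.06, 4.86 and 5.08.

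The largest log2 of a member in the authors' deposited table, 8.01, belonged to a region of 2.94 kb between Daam2 and Kif6, 21.8 kb upstream of the Kif6 start (chr17:49590405-49593340). Its folds were 10.1, 13.6 and 11.5. Daam2 encodes a formin of the Wnt pathway, and Kif6 a kinesin. The next values in the authors' deposited table were 7.69 in the run near Gm25693, 7.64 near Gm28196, 7.545 between Olfr267 and Lpar1, a lysophosphatidic acid receptor gene, and 7.54 near Capn9. The smallest, 0.99, lay near 1700061N14Rik, where folds of 5.68, 4.54 and 5.75 were above the median of the members in adult 1 and 3. Fold in the adult lists and log2 fold change went together weakly, with a Spearman correlation of 0.256 across 4282 regions.

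**Figure D4:**
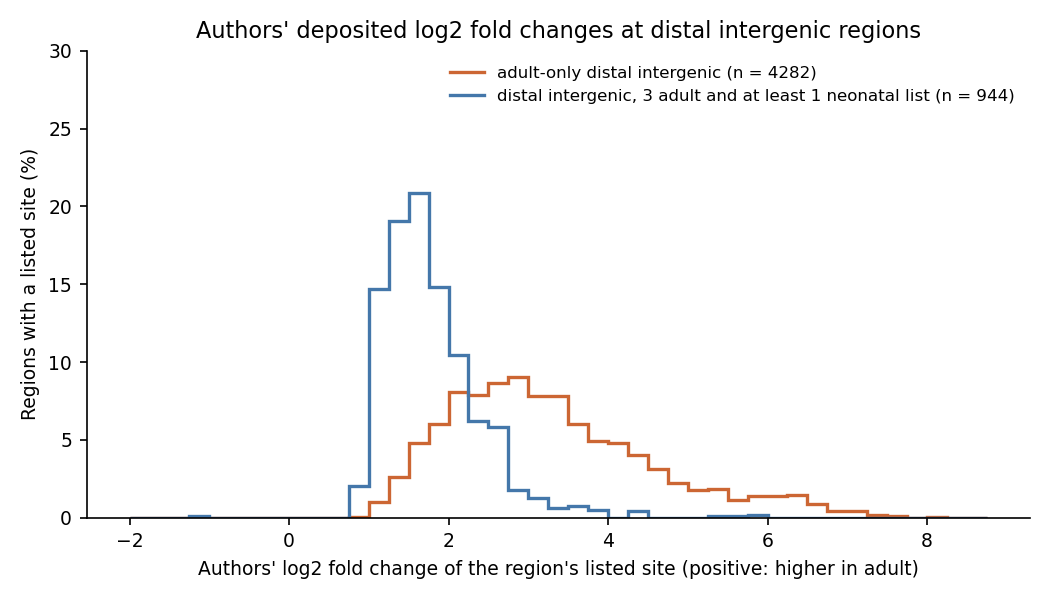
Percentage of regions with a listed site (y axis) by log2 value of the authors' deposited table (x axis, bins of 0.25, positive values higher in adult), for adult-only distal and shared distal regions. The adult-only distal regions centre on 3.06 and the shared distal regions on 1.67.

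Peaks outside the regions, which the rule did not use, were compared between the libraries as a measure of the surroundings. They come from the same libraries and the same contrast of ages, so the values are described without a p-value. Of the 2300 nearest genes, 21.4%, 41.1% and 20.5% had a promoter peak in neonatal libraries 1 to 3, against 55.3%, 55.2% and 57.0% in adult libraries 1 to 3. The means were 27.7% ± 11.6 (SD, n = 3) and 55.8% ± 1.04 (SD, n = 3), a difference of 28.2 points, and the groups did not overlap. Neonatal 2, the longest neonatal list, stood apart from the other neonatal libraries, and without it the difference was 34.9 points.

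The promoter difference was not larger than that of genes in general. Over all genes named in any list the shares were 27.2%, 58.4% and 24.0% against 66.2%, 64.5% and 66.1%, a difference of 29.0 points. For the nearest genes of shared distal regions it was 22.5 points. When each list was limited to its 7353 strongest peaks, the nearest genes of the members had shares of 20.1% ± 1.21 and 25.9% ± 0.515 (SD, n = 3 each), a difference of 5.78 points. Most of the 28.2 points were therefore absent when the lists had equal length. At equal length the shares over all genes and over the nearest genes of shared distal regions were not computed.

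Gene by gene, 286 of the 2300 nearest genes (12.4%) had a promoter peak in 3 adult and 0 neonatal libraries, as at Opalin. In 363 (15.8%) the promoter had a peak in all 6 libraries, in 522 (22.7%) in 3 adult and 1 or 2 neonatal libraries, and in 873 (38.0%) in no library. The reverse pattern of 3 neonatal and 0 adult libraries was found at 1 gene (0.04%), against 49 of 23459 genes named in any list (0.21%). Over all genes named in any list the other patterns were found for 9.60% (3 adult and 0 neonatal), 17.0% (all 6), 31.2% (3 adult and 1 or 2 neonatal) and 20.8% (no library). Among protein-coding genes the pattern of 3 adult and 0 neonatal libraries had nearly the same share in the nearest genes, 7.34%, as in all genes named, 7.20%. An adult-only distal region thus lay near genes whose own promoter carried the mark at both ages as well as near genes with a promoter peak only in adult lists. Nearest genes that were protein-coding in RefSeq had promoter shares of 44.5%, 77.0% and 42.5% against 84.5%, 84.2% and 84.3%, while the other gene models had 3.83%, 13.8% and 3.83% against 33.0%, 33.2% and 36.3%.

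A peak outside all adult-only distal regions lay within 50 kb of 38.2%, 67.5% and 34.1% of the members in neonatal libraries 1 to 3, against 91.7%, 93.2% and 95.7% in the adult libraries. The means were 46.6% ± 18.2 and 93.5% ± 2.06 (SD, n = 3 each), a difference of 46.9 points. The adult lists are longer, and this share was not computed over all merged regions or around adult-only intronic regions. Within 10 kb the shares were 9.77%, 30.8% and 8.22% against 67.8%, 72.6% and 81.8%. When lists were limited to their 7353 strongest peaks the shares within 50 kb were 33.6% ± 0.452 and 44.9% ± 1.91 (SD, n = 3 each), a difference of 11.3 points. The 3 adult values, 42.7%, 45.5% and 46.4%, still lay above the 3 neonatal values, 33.5%, 33.2% and 34.1%, at equal list length. For comparison, shared distal regions were given the same measure, leaving out peaks of both distal classes. With all peaks the difference was then 51.7 points around the adult-only and 32.4 points around the shared distal regions. At equal list length it was 9.33 points around the adult-only regions, with 30.1%, 31.4% and 31.4% in neonatal and 39.1%, 40.6% and 41.3% in adult libraries, and -1.90 points around the shared ones, which had been chosen to have a neonatal peak. These values describe how peaks of the same libraries lie together and were not tested.

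**Figure D5:**
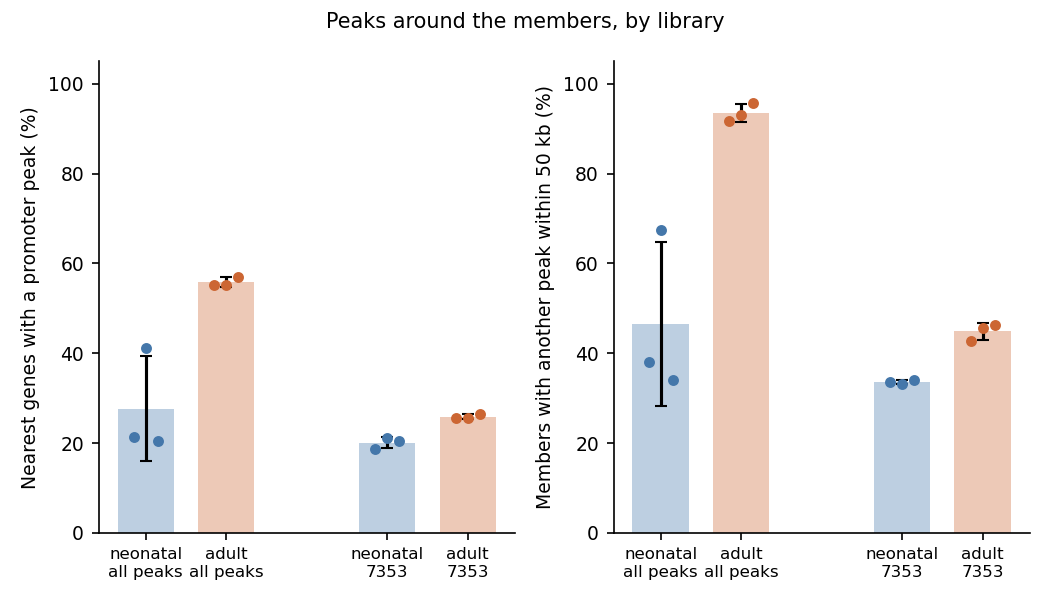
Share of the 2300 nearest genes with a promoter peak (left, %) and share of the 4516 members with another peak within 50 kb (right, %), per library (points), with group mean (bars) and SD over 3 libraries (error bars), for all peaks and for lists limited to their 7353 strongest peaks. A difference of 28.2 points at promoters falls to 5.78 points and that of 46.9 points within 50 kb falls to 11.3 points when lists have equal length.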

How the data were processed

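H4K8ac peak lists of 6 libraries (3 neonatal, 3 adult) and the authors' table of differential sites were used. The 6 inputs were left out. The authors' peak lists give, per the file headers, a score, a fold enrichment (a linear ratio), −log10 of the p-value and of the q-value, and an annotation with nearest gene and distance. Peaks were called per library, and the largest q-value in the lists was 0.0489. The authors' deposited table has no header and holds log2 fold changes with raw and adjusted p-values, but no library values. Tools named in the submitters' processing notes are Trim Galore, Bowtie2 2.4.5, SAMtools, deepTools, MACS2, DiffBind and ChIPseeker, with build GRCm38. Their settings are not given in the sources used here. Read depth is not in the files, so no precision per peak could be computed.

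Peaks were merged, counted and summarised with numpy 2.4.6, pandas 2.3.3, scipy 1.17.1 and matplotlib 3.10.9 under Python 3.11.15, with merging, run finding and overlap tested on simulated data. Libraries were grouped by their titles. A member took the gene and distance of its peak closest to a TSS. Coordinates count from 1, and RefSeq tables of GRCm38.p6 gave flanking genes, gene types and sequences. Genes named were the 10 nearest genes with the most members, those of the 5 strongest members, of the 5 largest log2 values and of the 5 largest runs, the 3 farthest and 3 closest, and up to 3 genes of each list of 16. Other named genes, the intervals between coding genes, the surroundings of shared distal regions, the promoter sequences and the microRNAs were chosen after their values were seen. Members and lists were chosen with earlier results of these data known. The 2 shares per library had been planned with an exact permutation test, whose smallest p-value for 3 against 3 libraries is 0.1. They use the libraries and contrast of the rule and are given as descriptions. Alternatives were stricter q-values, wider merging, equal list lengths, other gaps and windows, and each library left out. Some named genes that these rules select are not reported here.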

Additional observations from a re-analysis of the deposited data

How the results depend on the processing

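Merging peaks up to 1000 bp apart gave 2909 members, and the number was 93 with equal numbers of strongest peaks, and it lay between 4520 and 6234 when any 1 library was left out. The median distance to the TSS was 15.6 kb with equal numbers of strongest peaks and between 17.8 and 18.6 kb with 1 library left out. The share of members in runs was 57.95% for peaks with a q-value under 0.005, 34.7% with merging within 1000 bp, 7.53% with equal numbers of strongest peaks, 41.6% with the tighter gap limit, 66.65% with gaps of at most 100 kb, and between 60.4% and 69.6% with 1 library left out. A listed site with an adjusted p-value under 0.005 in the authors' deposited table lay in 82.2% of members. The differences in promoter share and in other peaks within 50 kb were positive in each alternative run, between 5.78 and 34.9 points and between 11.3 and 57.8 points. Replicate numbers did not pair the samples: deviations of same-numbered libraries had correlations of -0.03, 0.00 and 0.04. With the replicate number as a replicate block the differences were 28.2 and 46.9 points, as without it. Fewer and wider regions under merging, and fewer peaks at equal list length, follow from how those alternatives were built; the cause of the other shifts was not tested. Absence from a neonatal list cannot be told apart from a peak too weak to be called, and read depth was not tested.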
